A study of Homo sapiens with 6 samples.

Results

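The genes described here are 10 that the endoplasmic reticulum uses to fold proteins and to answer misfolding: the chaperones HSPA5, HSP90B1 and CALR, the disulfide isomerase PDIA4, the cofactors DNAJB9, SDF2L1 and CRELD2, the degradation factors HERPUD1 and EDEM1, and the transcription factor gene XBP1. They were chosen by name as well known members of the unfolded protein response, all 10 were found among the 78932 gene rows of the count table, and all 10 were among the 18040 genes with enough counts to be tested. RNA came from HCC1937, an established human breast cancer cell line, and 3 libraries were from cells given 8 nM docetaxel for 24 h and 3 from control cells of the same line, labelled only as con. Docetaxel, a taxane, keeps microtubules from disassembling by binding their β-tubulin. The series title is about the estrogen receptor and the arachidonic acid pathway and does not name the genes described here.

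The endoplasmic reticulum folds secreted and membrane proteins with chaperones that also hold back its stress sensors. When unfolded proteins accumulate, the sensor IRE1 splices the XBP1 mRNA, the sensor ATF6 is cut in the Golgi to free a transcription factor, and the kinase PERK slows translation while favouring that of ATF4. The spliced XBP1 protein and cleaved ATF6 then raise transcription of chaperones and of the degradation machinery, and HSPA5, which encodes BiP, is the usual readout of this response. Gene counts do not separate spliced from unspliced XBP1 mRNA, so the splicing itself was not measured here.

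Cleaved ATF6 and spliced XBP1 act through short elements near the start of such genes, shown here because 7 of the 10 genes carry one. The endoplasmic reticulum stress element, ERSE, was searched as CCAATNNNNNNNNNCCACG and the related ERSE-II as ATTGGNCCACG, on both strands of the RefSeq promoter windows of GRCh38.p14, which run from 250 bases before to 50 after each start and matched all 10 genes. In the sequences that follow, the capitals mark the CCAAT or ATTGG part and the CCACG or CGTGG part. Each is written 5′ to 3′ on the strand of its gene, so a match on the other strand reads with CGTGG first.
HSPA5 ERSE, bases 66 to 48 before the start: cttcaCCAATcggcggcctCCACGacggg
HSP90B1 ERSE, bases 194 to 176 before the start: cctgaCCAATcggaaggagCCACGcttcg
HSP90B1 ERSE on the other strand, bases 89 to 71 before the start: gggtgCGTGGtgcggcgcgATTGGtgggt
CALR ERSE on the other strand, bases 225 to 207 before the start: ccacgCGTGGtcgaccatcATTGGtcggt
XBP1 ERSE, bases 52 to 34 before the start: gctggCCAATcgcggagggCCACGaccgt
CRELD2 ERSE on the other strand, bases 80 to 62 before the start: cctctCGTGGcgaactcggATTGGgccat
HERPUD1 ERSE-II, bases 117 to 107 before the start: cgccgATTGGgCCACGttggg
SDF2L1 ERSE-II on the other strand, bases 188 to 178 before the start: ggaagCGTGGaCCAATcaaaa
The HSPA5 stretch lies at chr9:125241386-125241414 on the minus strand, that of XBP1 at chr22:28800598-28800626 on the minus strand, and that of SDF2L1 at chr22:21642109-21642129 on the plus strand, all in GRCh38.p14.

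Among all 35116 promoter windows, 27 held an ERSE, which is 0.0769%, and 19 held an ERSE-II, which is 0.0541%. The core of a further element, the UPRE, was searched as TGACGTGG and found in 256 windows, or 0.729%, and in 0 of the windows of the 10 genes. On its other strand the UPRE contains CCACG, which it shares with both other elements. A match of letters is a description and does not show that a factor bound there, and the windows of PDIA4, DNAJB9 and EDEM1 held none of the 3 elements as spelled here.

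Docetaxel moved the RNA of these 10 genes little. In edgeR's quasi-likelihood test with Benjamini-Hochberg adjustment over all 18040 genes, 1 of the 10, SDF2L1, was called higher at an adjusted p under 0.05, where 9.14% of all tested genes were called higher. HSP90B1 was the 1 gene called lower, where 7.82% of all tested genes were called lower. Fold changes ran between 0.860-fold for DNAJB9 and 1.16-fold for SDF2L1, and all 10 of the 95% confidence intervals lay within 1.5-fold either way, with the widest reaching 0.732-fold for DNAJB9 and 1.26-fold for SDF2L1. The median log2 fold change was -0.05 for the 10 genes and 0.01 for all tested genes. The labels do not say whether the replicates came from separate cultures or days, so each p reflects only how far these libraries differ within a group, and in bulk RNA fewer expressing cells and less RNA per cell cannot be told apart.

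The libraries held between 38622062 and 39181848 gene counts with docetaxel and between 39033097 and 41675186 in control. The 10 genes together took 0.349%, 0.352% and 0.344% of all counts in docetaxel replicates 1 to 3, against 0.360%, 0.359% and 0.359% in control replicates 1 to 3. The keratins KRT8 and KRT18 averaged 1965 and 666 CPM (counts scaled to 1000000 per library) over the 6 libraries. Of the other tested epithelial markers KRT7 averaged 476 CPM, ELF3 45.8, MUC1 11.8, CLDN4 2.95 and CDH1 0.689. The epithelial markers EPCAM, KRT19 and CDH3 had too few counts to be tested. Of the 7 tested of 10 epithelial markers, 4 were called higher with docetaxel, 2 of them also with the offsets described below, and the list's summed level was 3354 to 3400 CPM with docetaxel and 2893 to 2988 CPM in control. Other cell types left few counts: the leukocyte gene PTPRC had 0 counts over the docetaxel libraries and 1 over the control libraries, the 5 leukocyte markers, of which CD14 alone was tested and called higher, summed to 1.99 to 3.60 CPM with docetaxel and 1.51 to 1.80 CPM in control, and the 3 endothelial markers summed to 2.77 to 3.50 CPM with docetaxel and 2.05 to 2.95 CPM in control. Of the 6 fibroblast markers, 2 were tested, COL1A1 and PDGFRB, which averaged 140 and 4.57 CPM over the 6 libraries. The fibroblast list summed to 142 to 148 CPM with docetaxel and 140 to 147 CPM in control. The part of the epithelial difference in the results below was not tested.

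HSPA5, the central Hsp70 chaperone of the endoplasmic reticulum and the brake on its stress sensors (ENSG00000044574, GRCh38 chromosome 9, 125234853 to 125241330, minus strand), had 788, 775 and 791 CPM in docetaxel replicates 1 to 3, against 794, 812 and 795 CPM in control replicates 1 to 3. All docetaxel values were below all control values, but by so little that the lowest control and highest docetaxel libraries nearly met. The CPM here are scaled by TMM, a correction for library composition. The means were 784 ± 9 CPM with docetaxel and 800.0 ± 10 CPM in control (SD, n = 3 each). This is a log2 fold change of -0.03 ± 0.04 (SE; adjusted p = 0.68 by edgeR), and the 95% confidence interval ran from 0.932-fold to 1.03-fold.

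HSP90B1, which encodes the Hsp90 chaperone GRP94 (ENSG00000166598, chromosome 12, 103930107 to 103953645, plus strand), had 637, 667 and 642 CPM with docetaxel, against 694, 731 and 715 CPM in control. Every docetaxel library lay below every control library. The means were 649 ± 16 CPM with docetaxel and 713 ± 18 CPM in control (SD, n = 3 each), which is 0.910-fold, or -0.14 ± 0.04 on the log2 scale (SE; adjusted p = 0.0098 by edgeR). The call was lost without docetaxel replicate 3 (adjusted p = 0.075) and without control replicate 3 (adjusted p = 0.051). C12orf73 on the opposite strand shares 3444 bases with HSP90B1 and had 2186 counts with docetaxel and 2672 in control, and the strand setting of the counting is not given in the sources used here.

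CALR, the lectin chaperone calreticulin (ENSG00000179218, chromosome 19, 12938578 to 12944489, plus strand), was the most abundant of the 10, with 1202, 1301 and 1191 CPM with docetaxel and 1202, 1129 and 1190 CPM in control. Docetaxel replicate 2 stood highest, and the groups overlapped only because docetaxel replicate 3 lay below control replicate 1. The means of 1232 ± 61 CPM with docetaxel and 1174 ± 39 CPM in control (SD, n = 3 each) gave a log2 fold change of 0.07 ± 0.04 (SE; adjusted p = 0.24 by edgeR). CANX, the membrane-bound partner lectin of CALR and not one of the 10, was called lower, with 774 ± 23 CPM with docetaxel and 902 ± 33 CPM in control (SD, n = 3 each; log2 fold change -0.22, edgeR adjusted p = 0.00015). The ratio of CALR to CANX counts was 1.51, 1.73 and 1.55 in the docetaxel libraries and 1.36, 1.20 and 1.35 in the control libraries, with no overlap.

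PDIA4, also called ERp72, is a protein disulfide isomerase that forms and rearranges disulfide bonds in folding proteins (ENSG00000155660, chromosome 7, 149003062 to 149028641, minus strand). Its levels were 209, 208 and 212 CPM with docetaxel and 217, 224 and 223 CPM in control. The groups did not overlap, and this gene had the smallest relative spread of the 10 within the docetaxel group, 0.963% of the mean. PDIA4 was not called, at a log2 fold change of -0.08 ± 0.04 (SE; adjusted p = 0.22 by edgeR), and the 95% confidence interval ran from 0.896-fold to 1.00-fold.

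SDF2L1, a stromal cell derived factor 2-like protein that works with DNAJB cochaperones in the BiP chaperone cycle (ENSG00000128228, chromosome 22, 21642261 to 21644298, plus strand), had 219, 221 and 207 CPM with docetaxel, against 201, 166 and 191 CPM in control. It was the 1 gene of the 10 with every docetaxel library above every control library. The means were 216 ± 8 CPM with docetaxel and 186 ± 18 CPM in control (SD, n = 3 each), and the log2 fold change was 0.21 ± 0.05 (SE), or 1.16-fold (edgeR adjusted p = 0.0084). Control replicate 2 was the lowest library, and without it the log2 fold change was 0.14 and the call remained (adjusted p = 0.041). SDF2L1 carries one of the ERSE-II sequences printed above, and HERPUD1, which carries the other, was not called.

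DNAJB9, or ERdj4, is a J-domain cochaperone that brings BiP to misfolded clients and to IRE1 (ENSG00000128590, chromosome 7, 108569568 to 108574850, plus strand). It was much less abundant, at 10.4, 9.10 and 9.40 CPM with docetaxel and 12.2, 10.8 and 10.7 CPM in control. All docetaxel values lay below all control values. DNAJB9 had the widest interval of the 10, 0.732-fold to 1.01-fold around a log2 fold change of -0.22 ± 0.11 (SE), and was not called (adjusted p = 0.21 by edgeR). THAP5 and PNPLA8 on the opposite strand share 183 and 99 bases with it, and had 1955 and 1878 counts with docetaxel and 2789 and 2386 in control.

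CRELD2, a secreted and endoplasmic reticulum-resident protein induced by stress (ENSG00000184164, chromosome 22, 49918167 to 49927540, plus strand), had 102, 109 and 102 CPM with docetaxel and 107, 96.2 and 104 CPM in control. The groups overlapped, and control replicate 2 was the lowest library. It was not called, at a log2 fold change of 0.03 ± 0.05 (SE; adjusted p = 0.77 by edgeR), and in 11 of 14 other ways of scaling, filtering or testing the counts, leaving out libraries included, its sign was also positive. ALG12 on the opposite strand shares 292 bases with CRELD2.

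HERPUD1 and EDEM1 act in endoplasmic reticulum-associated degradation, in which misfolded proteins are sent back to the cytosol for the proteasome. HERPUD1, a membrane protein that organises the ubiquitin ligase complex (ENSG00000051108, chromosome 16, 56932048 to 56944863, plus strand), had 134, 129 and 138 CPM with docetaxel and 138, 141 and 141 CPM in control. Docetaxel replicate 3 just exceeded control replicate 1. HERPUD1 was not called, at a log2 fold change of -0.07 ± 0.04 (SE; adjusted p = 0.33 by edgeR).

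EDEM1, which helps to select glycoproteins for degradation by trimming of their mannose (ENSG00000134109, chromosome 3, 5187646 to 5219957, plus strand), had 24.2, 19.5 and 20.9 CPM with docetaxel and 23.6, 26.3 and 25.1 CPM in control. Docetaxel replicate 1 lay inside the control range, and the other docetaxel libraries lay below it. For all 6 libraries the log2 fold change was -0.21 ± 0.09 (SE; adjusted p = 0.085 by edgeR), and without docetaxel replicate 1 it was -0.33 and called lower (adjusted p = 0.010).

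XBP1, the transcription factor gene whose mRNA IRE1 splices (ENSG00000100219, chromosome 22, 28794555 to 28800597, minus strand), had 175, 170 and 176 CPM with docetaxel and 180, 174 and 181 CPM in control. The ranges overlapped, with control replicate 2 below docetaxel replicates 1 and 3. XBP1 had a log2 fold change of -0.04 ± 0.04 (SE), and the 95% confidence interval ran from 0.918-fold to 1.03-fold (edgeR adjusted p = 0.62).

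**Figure D1:**
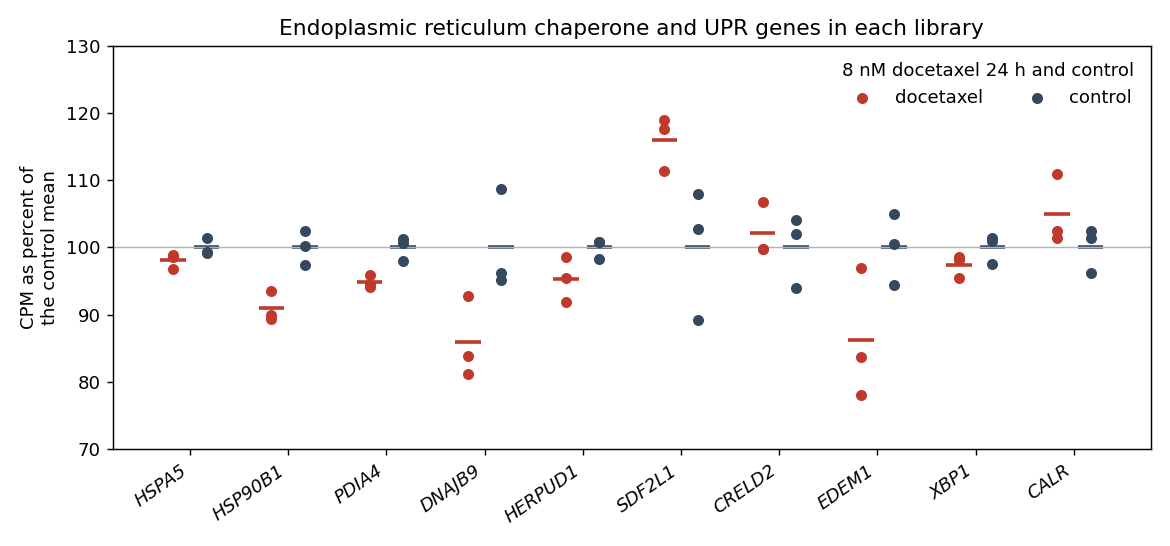
Level of each of the 10 genes in each library, in TMM-scaled CPM as a percent of that gene's control mean, with docetaxel libraries left of control libraries, 1 point per library and a bar at each group mean (n = 3 each). HSPA5, HSP90B1, PDIA4 and DNAJB9 lie wholly below their controls, SDF2L1 lies wholly above, and the other 5 overlap.

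By order alone, 4 of the 10 genes, HSPA5, HSP90B1, PDIA4 and DNAJB9, had every docetaxel library below every control library, and 15.0% of all tested genes did. SDF2L1 was the 1 gene with every docetaxel library above, as were 17.0% of all tested genes, and the other 5 overlapped. The median biological coefficient of variation, edgeR's estimate of spread between replicates, was 4.31% over the 10 and 9.11% over all tested genes. Most of the 10 are abundant, and this comparison was not matched for level. The SD within a group reached 11.2% of the mean for EDEM1 with docetaxel and 9.73% for SDF2L1 in control. In level, CALR ranked 83 among the tested genes, HSPA5 128, HSP90B1 150, PDIA4 762, SDF2L1 832, XBP1 975, HERPUD1 1364, CRELD2 1950, EDEM1 6716 and DNAJB9 9050.

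Per length the order changed. In CPM per kilobase of the deposited gene length, CALR had 440 with docetaxel and 419 in control, SDF2L1 204 and 176, and HSPA5 120 and 123. PDIA4 followed with 63.6 with docetaxel and 67.1 in control, XBP1 with 57.3 and 58.8, HSP90B1 with 49.6 and 54.5, HERPUD1 with 26.3 and 27.6, and CRELD2 with 20.2 and 19.8. DNAJB9 and EDEM1 were lowest, at 3.80 and 3.20 with docetaxel and 4.42 and 3.71 in control. With the longest protein-coding transcript as the length instead, HSP90B1 came to 227 CPM per kilobase with docetaxel and 250 in control and stood above HSPA5, at 201 and 205. CALR remained the most abundant and DNAJB9 and EDEM1 the least on both lengths.

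Within a library the counts of one gene relative to another do not depend on scaling. The ratio of HSP90B1 to HSPA5 counts was 0.809, 0.861 and 0.812 with docetaxel and 0.875, 0.901 and 0.899 in control, so the GRP94 gene was lower relative to the BiP gene in each docetaxel library. The ratio of SDF2L1 to HSPA5 counts was 0.278, 0.286 and 0.262 with docetaxel and 0.253, 0.204 and 0.241 in control. That of XBP1 to HSPA5 was 0.222, 0.219 and 0.222 with docetaxel and 0.226, 0.214 and 0.227 in control, with overlap. These ratios are given without a test.

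The direction of the small differences followed the GC content of the transcript, as it did over all genes. Over the 10 genes the log2 fold change and the GC content of the longest transcript had a Spearman correlation of 0.818, given as a description over 10 genes measured in the same libraries. SDF2L1, with the highest GC content at 65.5%, was the gene called higher, and DNAJB9 at 40.4% and HSP90B1 at 41.2% had the lowest. When all tested genes with a GC value were split into 5 groups of near-equal size by GC content, the lowest group had a median log2 fold change of -0.19, with 6 calls higher and 945 lower. In the highest group the median was 0.18, with 1038 calls higher and 4 lower.

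Neither call on the 10 genes remained once each library's smooth trend on GC content and length was taken out with offsets in the model. The trend was fitted per library without regard to group, so any docetaxel effect that goes with GC content or length was taken out too. Such an effect and a difference between libraries cannot be told apart here. SDF2L1 had a log2 fold change of 0.01 ± 0.04 (SE; adjusted p = 0.96 by edgeR) and HSP90B1 one of 0.02 ± 0.04 (SE; adjusted p = 0.87 by edgeR). With these offsets 0 of the 10 genes were called higher by edgeR, and 0 at an unadjusted p under 0.05, where 2.05% of all tested genes were called, and 1 was called lower, where 1.66% of all tested genes were. That gene was PDIA4, whose log2 fold change was -0.15 ± 0.04 (SE), or 0.899-fold (edgeR adjusted p = 0.012). PDIA4 was also called lower with offsets from the longest protein-coding transcript (log2 fold change -0.14, edgeR adjusted p = 0.013). It was called in 2 of 6 fits with offsets that left out a library, with edgeR adjusted p values between 0.0071 and 0.13. In 14 alternatives without offsets its log2 fold change was always negative, and 1 of them called it. HSPA5 had a log2 fold change of 0.02 ± 0.03 (SE) with the offsets and a 95% confidence interval of 0.968-fold to 1.06-fold (edgeR adjusted p = 0.88). Over the 10 genes the median was -0.04 with the offsets, and 0.01 over all tested genes, and the correlation with GC content was -0.115. The longest annotated transcripts of XBP1 and CRELD2 are not protein coding, and with offsets from the longest coding transcript XBP1 had a log2 fold change of -0.07 in place of 0.06 and was called in neither case. The longest HSP90B1 transcript also differs from its longest coding one, and with offsets from the coding one HSP90B1 had a log2 fold change of -0.03 in place of 0.02 (edgeR adjusted p = 0.77).

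**Figure D2:**
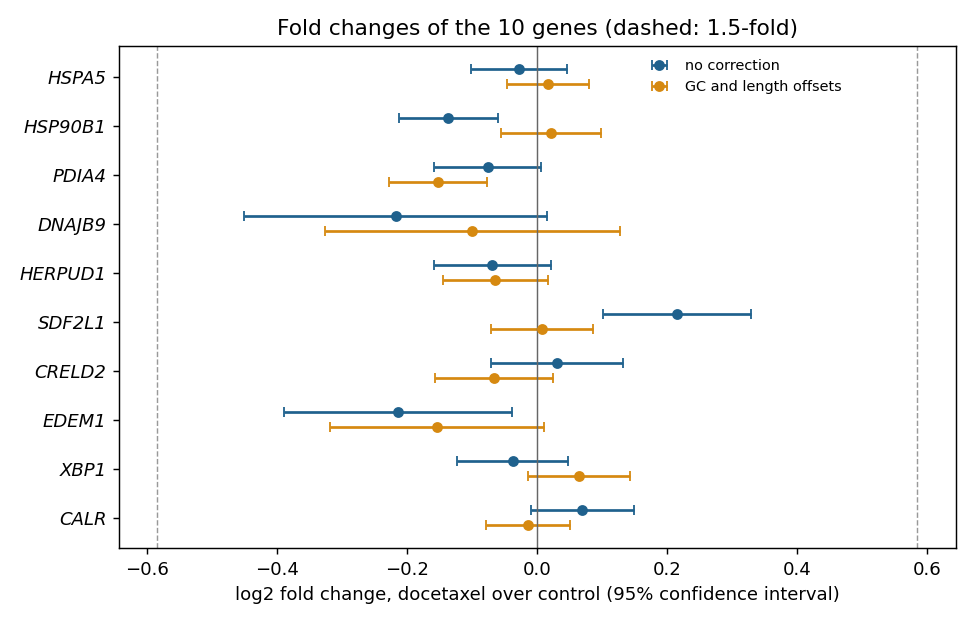
Log2 fold change of docetaxel over control for each of the 10 genes with its 95% confidence interval, without correction and with the GC and length offsets (edgeR, n = 3 each). All intervals lie inside the dashed lines at 1.5-fold. With the offsets HSP90B1 and SDF2L1 move to near 0, and PDIA4 moves from -0.08 to -0.15.

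**Figure D3:**
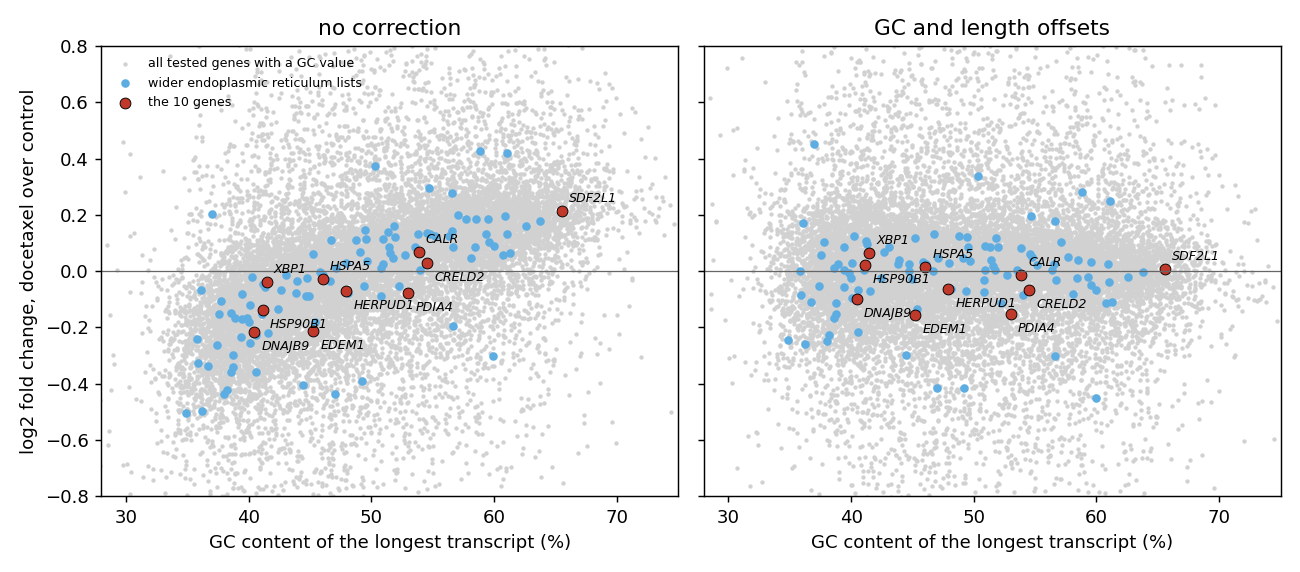
Log2 fold change of docetaxel over control against the GC content of the longest transcript, in percent, without correction on the left and with the GC and length offsets on the right. Each point is 1 gene, grey for tested genes with a GC value, blue for the wider endoplasmic reticulum lists and red for the 10 genes, and genes beyond 0.8 either way are not drawn. On the left the red points climb with GC content from DNAJB9 to SDF2L1. On the right they no longer climb and run from -0.16 for EDEM1 to 0.06 for XBP1, with PDIA4 at -0.15.

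The other genes of the endoplasmic reticulum were described with 8 lists that hold 100 genes, all tested and none of them among the 10. Of these, 12 were called higher and 21 lower, which is 12% and 21%, where 9.14% and 7.82% of all tested genes were. Those shares of all tested genes also apply to the counts without offsets in each list below. The median log2 fold change of the 100 genes was -0.01. The median GC content was 56.6% for those called higher, 38.7% for those called lower and 49.6% for those not called. With the offsets 1 was called higher and 5 lower, where 2.05% and 1.66% of all tested genes were. Each of these 6 was called in the same direction without the offsets.

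The sensors and transcription factors of the response split. Of 13, 3 were called higher and 2 lower, with a median log2 fold change of 0.03. CREB3, a membrane-bound relative of ATF6 (log2 fold change 0.28, edgeR adjusted p = 0.0019), ATF6B, a paralog of ATF6 (0.18, adjusted p = 0.0088), and RTCB, the ligase that joins the XBP1 exons (0.15, adjusted p = 0.020), were the genes called higher. MBTPS2, the protease that makes the second cut in ATF6 (-0.33, edgeR adjusted p = 0.0023), and EIF2AK3, which encodes PERK (-0.40, adjusted p = 0.021), were called lower, and EIF2AK3 lies outside the naming rule and was added after its values were seen. With the offsets edgeR called 0 of the 13, and 2 were higher and 1 lower at an unadjusted p under 0.05.

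The sensor genes ERN1, which encodes IRE1, and ATF6 had levels of 5.0 and 73.0 CPM with docetaxel and 5.31 and 75.9 CPM in control, and neither was called (edgeR adjusted p = 0.79 and 0.57). ATF4 had 646, 701 and 673 CPM with docetaxel and 627, 622 and 654 CPM in control, with docetaxel replicate 1 inside the control range, a log2 fold change of 0.09 ± 0.04 (SE; adjusted p = 0.14 by edgeR). DDIT3, which encodes the stress factor CHOP, averaged 14.7 CPM with docetaxel and 14.4 CPM in control (edgeR adjusted p = 0.88). ERN1, ATF6, ATF4 and DDIT3 were picked with their values known.

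Among 10 target genes of the PERK arm, edgeR called 2 higher and 0 lower, and the median log2 fold change was 0.13. At an unadjusted p under 0.05 edgeR gave 4 higher and 0 lower, and DESeq2 and limma-voom each called 2 higher and 0 lower. PPP1R15A, or GADD34, the phosphatase subunit that reverses PERK signalling, averaged 21.1 ± 0.3 CPM with docetaxel and 15.7 ± 1.2 CPM in control (SD, n = 3 each) (edgeR adjusted p = 0.0011), which is 0.42 ± 0.09 on the log2 scale (SE). TRIB3, a pseudokinase induced by ATF4 and CHOP, averaged 128 ± 2 CPM with docetaxel and 111 ± 3 CPM in control (SD, n = 3 each; log2 fold change 0.20, edgeR adjusted p = 0.0027). NUPR1 and SESN2 were not called, at log2 fold changes of 0.37 and 0.19. With the offsets PPP1R15A stood at 0.28 (adjusted p = 0.054) and TRIB3 at 0.03 (adjusted p = 0.85), and edgeR called 0 of the 10, with 2 higher and 1 lower at an unadjusted p under 0.05.

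Of 15 further chaperones and cochaperones, 1 was called higher and 3 lower, with a median log2 fold change of 0.00. SERPINH1, the collagen chaperone, had a log2 fold change of 0.14 (edgeR adjusted p = 0.0085). CANX, DNAJC10, a J-domain disulfide reductase, and SEC63, a J-domain partner of the translocon, fell to 0.858-fold, 0.833-fold and 0.889-fold of control (edgeR adjusted p = 0.00015, 0.00090 and 0.013). With the offsets edgeR called 0 of these 15 genes. Of 14 genes of disulfide formation, edgeR called 4 lower and 0 higher, with 3 higher at an unadjusted p under 0.05, DESeq2 called 4 lower and 0 higher, and limma-voom 3 and 0. Those edgeR called were the membrane thioredoxins TMX1 at 0.705-fold and TMX3 at 0.709-fold, the oxidase ERO1A at 0.813-fold and ERP44, which retains ERO1 proteins, at 0.890-fold. TMX1 and TMX3 were also called lower with the offsets (edgeR adjusted p = 0.020 and 0.047), and neither was with offsets from the coding transcript (adjusted p = 0.051 and 0.10).

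In glycoprotein quality control 2 of 8 genes were called higher and 1 lower: the glucosidase subunit PRKCSH at 1.10-fold, the mannosidase MAN1B1 at 1.15-fold and EDEM3, a relative of EDEM1, at 0.780-fold (edgeR adjusted p = 0.018, 0.0043 and 0.0036), while GANAB, at 1.06-fold, was not called. In endoplasmic reticulum-associated degradation 2 of 20 were called higher and 2 lower: the lectin OS9 at 1.12-fold, the ATPase VCP at 1.09-fold, HERPUD2, a paralog of HERPUD1, at 0.762-fold and UBXN4, a VCP-binding protein, at 0.779-fold. HERPUD2 averaged 11.3 ± 0.3 CPM with docetaxel and 14.8 ± 0.8 CPM in control (SD, n = 3 each), and with the offsets its log2 fold change was -0.41 (edgeR adjusted p = 0.011). For HERPUD1 the offset value was -0.06 (edgeR adjusted p = 0.46), and the difference between the paralogs was not tested.

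The translocon and signal peptidase list had the most genes called lower by number, 6 of 15, with 1 called higher and a median log2 fold change of -0.09. As a share this was 40%, against 60% of the receptors for autophagy of the endoplasmic reticulum. The translocon list also had the lowest median GC content of the lists, 40.6%. TRAM1, a translocating chain-associating membrane protein, had a log2 fold change of -0.44 ± 0.05 (SE; adjusted p = 6.1e-06 by edgeR) and one of -0.25 with the offsets (adjusted p = 0.00015). SEC62, SSR1 and SPCS3, of the translocon, its associated complex and the signal peptidase, had log2 fold changes of -0.34, -0.23 and -0.24 (edgeR adjusted p = 0.00022, 0.00021 and 0.0051), and with the offsets none of these 3 was called. Of 5 receptors for autophagy of the endoplasmic reticulum 1 was called higher and 3 lower: TEX264 at 1.23-fold, CCPG1 at 0.747-fold, ATL3 at 0.839-fold and RTN3 at 0.911-fold (edgeR adjusted p between 0.00021 and 0.028). TEX264 was also called with the offsets (edgeR adjusted p = 0.017), and not with offsets from the coding transcript (adjusted p = 0.29).

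**Figure D4:**
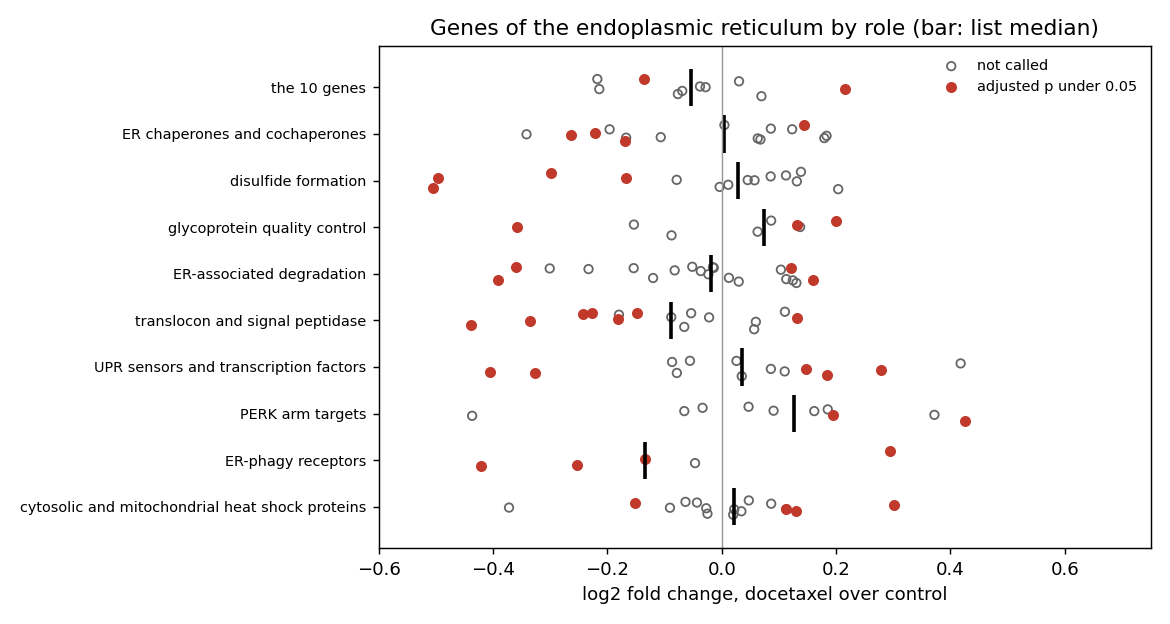
Log2 fold change of docetaxel over control for the 10 genes, the 8 wider lists and the cytosolic and mitochondrial heat shock proteins, 1 point per tested gene, filled where the edgeR adjusted p was under 0.05, with a bar at the list median. Called genes lie on both sides of 0 in each list but 2, the PERK arm targets with calls higher alone and the disulfide formation genes with calls lower alone.

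Chaperones outside the endoplasmic reticulum were described in the same way. Of 16 cytosolic and mitochondrial heat shock genes 3 were called higher and 1 lower, where 9.14% and 7.82% of all tested genes were. Their median log2 fold change was 0.02. HSPB1, the small heat shock protein Hsp27, rose 1.23-fold, HSPA1A, the inducible Hsp70, rose 1.09-fold and HSP90AB1, the constitutive Hsp90, rose 1.08-fold, while HSPH1, an Hsp110, had a log2 fold change of -0.15 (edgeR adjusted p between 2.6e-05 and 0.026). HSPA1A has a near-identical copy, HSPA1B, so its counts are uncertain. With the offsets HSP90AB1 alone was called of the 16 (edgeR adjusted p = 0.029), and HSPA1A and HSPH1 changed sign.

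The genes whose pattern over the 6 libraries was most like that of HSPA5 were found from the root mean square difference of their log2 deviations, among 10525 other genes with at least 5 CPM on average. They were MCCC2, a leucine breakdown enzyme, at 0.00656, HSP90AA1, the inducible cytosolic Hsp90, at 0.00768, CALM2, a calmodulin, at 0.00990, NARS1, an asparaginyl-tRNA synthetase, at 0.0121 and ICMT, a carboxyl methyltransferase of the endoplasmic reticulum, at 0.0140, where the median was 0.108. HSPA5 itself varied by only 0.0197 around its mean, so the measure picks genes that hardly vary. Of the other 9 genes described here PDIA4 was nearest to HSPA5, at 0.0269, followed by XBP1 at 0.0287 and HERPUD1 at 0.0311, and SDF2L1 was farthest, at 0.159.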

How the data were processed

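The authors deposited raw counts of reads per gene in 1 table, with gene lengths, from poly(A) RNA read as 150-base pairs per the labels. FeatureCounts 2.0.1 made the counts on GRCh38, and MultiQC 1.11 was used, per the submitters' processing notes. The aligner, annotation release and strand setting were not given in the sources used here. Columns were matched to samples by library name. The members, lists and tests were chosen with earlier results of these data known. Coordinates and GC content came from GENCODE release 29, with GC for 91.03% of tested genes.

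Counts were tested with edgeR 4.0.16 in R 4.3.3 (filterByExpr, TMM, robust glmQLFit and glmQLFTest, two-sided, Benjamini-Hochberg over 18040 genes, called at an adjusted p under 0.05). The tested genes held 99.9% of counts, at a common biological coefficient of variation of 0.0759. Each standard error is the one that yields the p of the test. For the offsets, a loess curve with span 0.5 was fitted, per library, to the difference in log2 CPM from the gene's mean, against GC content and log2 length. Alternatives were RLE, upper-quartile and total-count scaling, DESeq2 1.42.0, limma-voom 3.58.1, other filters, a block and leaving out each library. Pairs of libraries within a group differed by more than sampling noise. The tests were also run on counts simulated without a trend on GC content. That run cannot show how the tests behave with such a trend. Named were the 10 genes, up to 4 genes per list with the smallest p, the 5 genes most like HSPA5 and the cell type markers, and any other gene is said to be added. Promoter sequences are RefSeq's.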

Additional observations from a re-analysis of the deposited data

How the results depend on the processing

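SDF2L1 was called higher in all 14 alternatives without GC and length offsets, and HSP90B1 lower in 12 of the 14. Of the 10 genes, total-count scaling called 2 lower, PDIA4 being the second (edgeR adjusted p = 0.042), and leaving out 1 library called 1 higher in each case and 0 to 2 lower. The offsets called 0 higher and 1 lower, PDIA4, in all 3 forms. These were the offsets alone, with the replicate block, and from the coding transcript, the last chosen after seeing the data. Over all tested genes 1649 were called higher and 1410 lower, against 369 and 300 with offsets, 273 and 220 with the replicate block and offsets, and 333 and 295 with offsets from the coding transcript. Total-count scaling gave 1096 higher and 1866 lower, DESeq2 1609 and 1666, and leaving out 1 library 990 to 1397 higher and 740 to 1841 lower, with the higher count at 990 without control replicate 2, 1056 without docetaxel replicate 3 and 1089 without docetaxel replicate 2, and the lower count at 740 and 768 without the first 2 of these. Upper-quartile scaling gave 1853 higher and 1266 lower. In the wider lists 12 were called higher and 21 lower, against 1 and 5 with offsets, 1 and 4 with the replicate block and offsets, and 0 and 4 with offsets from the coding transcript. Total-count scaling gave 7 higher and 27 lower there, upper-quartile scaling 17 and 19, and no filter 7 and 19. Leaving out 1 library gave 6 to 14 higher and 14 to 23 lower, with 6, 6 and 7 higher without docetaxel replicate 2, docetaxel replicate 3 and control replicate 2. The replicate block alone called 1283 genes higher and 1106 lower, and 1 and 1 of the 10. Deviations of libraries with the same number had correlations of 0.0080, 0.0070 and 0.0157, against -0.0144 to 0.0060 for different numbers. Each library correlated best with its own number, but all these values lay near 0. They cannot show a pairing, and the labels state none.

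Some log2 fold changes changed sign with offsets, and the cause was not tested. HSP90B1 was 0.021 with offsets and 0.020 with the block as well, and leaving out 1 library in turn it ran between -0.025 and 0.063, positive at 0.063, 0.024, 0.011, 0.00826 and 0.059. SDF2L1 with offsets was -0.042 without docetaxel replicate 1 and -0.022 without control replicate 2. With offsets, with the block as well and with offsets from the coding transcript, SEC63 was 0.0045, 0.0048 and 0.036, ERP44 0.025, 0.026 and 0.040, PRKCSH -0.039, -0.040 and -0.036, HSPA1A -0.024, -0.024 and -0.022, and HSPH1 0.014, 0.014 and 0.038. With offsets from the coding transcript SPCS3 was 0.037 and RTN3 0.000704. At 9 to 12 CPM DNAJB9 had the fewest reads of the 10 and the widest interval.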

Other observations

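Beside the 10 genes, 37 genes had an ERSE or ERSE-II in their RefSeq promoter window, and 24 of these had enough counts to be tested. Of the 24, 3 were called higher and 4 lower, with a median log2 fold change of 0.01, and with the GC and length offsets 1 was called higher and 1 lower, where 9.14% of all tested genes were called higher and 7.82% lower without offsets. These genes were chosen by the letters alone. HYOU1, an Hsp110-like chaperone of the endoplasmic reticulum, had 136, 135 and 136 CPM with docetaxel and 126, 121 and 127 CPM in control, and just missed the threshold (log2 fold change 0.12, edgeR adjusted p = 0.052). PDIA6, a disulfide isomerase, averaged 215 ± 11 CPM with docetaxel and 216 ± 3 CPM in control (SD, n = 3 each; edgeR adjusted p = 0.97). FICD, the enzyme that modifies BiP, averaged 2.67 ± 0.20 CPM with docetaxel and 3.17 ± 0.95 CPM in control (SD, n = 3 each; edgeR adjusted p = 0.52). SERP1, a translocon-associated stress protein, had 198, 201 and 201 CPM with docetaxel and 198, 187 and 193 CPM in control, and was called higher with the GC and length offsets (log2 fold change 0.15, edgeR adjusted p = 0.016) and not without them (0.05, adjusted p = 0.43). TMEM120A, a membrane protein gene, averaged 91.3 ± 1.3 CPM with docetaxel and 94.6 ± 1.8 CPM in control (SD, n = 3 each), and was called lower with the offsets (log2 fold change -0.19, edgeR adjusted p = 0.0090) and not without them (-0.05, adjusted p = 0.54). HYOU1, PDIA6, FICD, SERP1 and TMEM120A were chosen after their values were seen.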
